A study of Mus musculus with 26 samples.

Results

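The interferon-stimulated genes described here are 38 genes of the mouse genome that cells switch on in response to interferon. They were taken by gene symbol from both deposited count tables, and all 38 had counts, among 47642 genes with counts in all. The tissue was the left ventricle of the heart of male mice, taken at 40 days of age, after sham surgery or castration at about 10 days of age. All mice shared the isogenic strain background C57BL/6.Y<129P2>, and they carried either an intact Y-linked Uty gene (wild type) or the allele UtyGt(XS0378)Wtsi, a gene trap in intron 4 of Uty. A trap of this kind inserts a splice acceptor and a stop for transcription into its host gene. It is carried on the Y chromosome and is not limited to heart cells by any promoter named in the labels. There were 6 wild-type sham, 6 gene-trap sham, 7 wild-type castrated and 7 gene-trap castrated libraries. The labels do not say that each library came from a separate animal, so the p-values measure the spread between these libraries. The comparisons asked how the trap changed ventricular expression within each surgery group and how castration changed it within each genotype.

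Interferons are secreted proteins that bind receptors on neighbouring cells and activate the JAK kinases. These phosphorylate transcription factors of the STAT family, which bind the interferon-stimulated response element (ISRE), together with IRF9, or the gamma-activated site (GAS) in promoters. The genes so induced encode sensors of foreign nucleic acid, enzymes and binding proteins that block viral RNA, and GTPases that attack membranes around microbes. In the heart they are best known from viral myocarditis, and many have a low level without infection.

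Libraries were made with a kit that counts 1 tag per transcript near its 3′ end, and they held 6357485 to 9399241 counts in genes. Levels are given as CPM, the counts scaled to the same effective number of gene counts per library. Uty itself was at 6.56 to 11.8 CPM in the 13 wild-type libraries and at 0 to 1.06 CPM in the 13 gene-trap libraries, with no overlap. The interferon-stimulated genes together took 0.0620% to 0.0683% of the gene counts in wild-type sham libraries and 0.0678% to 0.103% in the other 20. Wild-type sham libraries 1 to 5 stood apart on the first principal component of all genes (35.5% of the variance; -77.3 to -33.9 against -26.4 to 37.3 in the other 21 libraries), and wild-type sham replicate 6 did not. Gene-trap castrated replicates 1 to 4 also stood apart from replicates 5 to 7: 45.9% to 46.8% of the reads in their columns had no unique alignment, against 42.4% to 43.4%. Results that rest on gene-trap castrated replicates 1 to 4 are given below with and without them. Wild-type sham replicates 1 to 5 were left out only 1 at a time, not as a set.

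Promoter sequences show what many of the 38 genes share apart from their names. Of 29 members with a promoter in the RefSeq table (GRCm38.p6; 250 bases before to 50 bases after the annotated start), 18, or 62.1%, held an ISRE core on either strand, searched as GAAA, any 2 bases and GAAA again (TTTC, any 2 bases and TTTC on the other strand), against 3.99% of 27025 genes. The GAS core TTCNNNGAA, which reads the same on both strands, was found in 10 of the 29, or 34.5%, against 9.55% of genes. The 2 motifs share the letters GAA and can overlap, as in Bst2. Stretches upstream of the start site are printed below 5′ to 3′ on the strand of the gene, with ISRE and GAS cores in capitals and 12 bases on either side where the window allows. A further GAS core of Gbp7, which starts 106 bases before the start site, lies mostly outside its stretch and is not marked. The first set is from the guanylate-binding protein and immunity-related GTPase genes, whose results are described first; the second is from genes that act on RNA and from Isg15; Stat2 and Bst2 stand last as members with cores that passed no test.
Gbp7: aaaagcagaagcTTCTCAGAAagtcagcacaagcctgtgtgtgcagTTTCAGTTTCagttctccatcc
Gbp3: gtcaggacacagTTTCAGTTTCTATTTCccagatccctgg
Gbp2: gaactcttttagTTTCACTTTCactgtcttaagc
Irgm1: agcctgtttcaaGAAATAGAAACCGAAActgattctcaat
Igtp: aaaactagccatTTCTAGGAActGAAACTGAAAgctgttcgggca
Irgm2: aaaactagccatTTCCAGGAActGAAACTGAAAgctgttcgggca
Tgtp1: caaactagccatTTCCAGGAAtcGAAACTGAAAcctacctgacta
Ifit1: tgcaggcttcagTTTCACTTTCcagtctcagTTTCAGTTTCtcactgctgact
Ifit3: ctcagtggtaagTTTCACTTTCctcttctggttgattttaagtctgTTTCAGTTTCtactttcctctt
Ifit3b: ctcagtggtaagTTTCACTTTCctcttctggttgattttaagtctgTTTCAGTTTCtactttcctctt
Isg15: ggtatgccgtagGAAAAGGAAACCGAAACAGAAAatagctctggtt
Stat2: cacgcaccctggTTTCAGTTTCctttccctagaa
Bst2: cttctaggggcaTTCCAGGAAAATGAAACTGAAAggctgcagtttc

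These stretches lie at chr3:142530237-142530304 (Gbp7, plus strand), chr3:142559987-142560026 (Gbp3, plus), chr3:142620592-142620625 (Gbp2, plus), chr11:48871423-48871462 (Irgm1, minus), chr11:58199499-58199543 (Igtp, plus), chr11:58214890-58214934 (Irgm2, plus) and chr11:48992302-48992346 (Tgtp1, minus). Those of the second set lie at chr19:34640773-34640825 (Ifit1, plus), chr19:34583361-34583428 (Ifit3, plus), chr19:34607757-34607824 (Ifit3b, plus) and chr4:156200863-156200908 (Isg15, minus), followed by chr10:128270264-128270297 (Stat2, plus) and chr8:71537575-71537620 (Bst2, minus). The stretches of Igtp and Irgm2 were identical at 44 of 45 bases, and those of Ifit3 and Ifit3b at all 68. A GAS core with 2 bases between it and an ISRE core occurred in 5 of 32851 promoters, or 0.0152%, and 3 of the 5 belonged to members, namely Igtp, Irgm2 and Tgtp1. No ISRE core was found in the windows of 11 members: Dtx3l, Ifi35, Ifi44, Ifit2, Irf1, Irf7, Irf9, Oasl2, Samd9l, Trim25 and Xaf1. This says only that these letters are not in those windows.

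**Figure D1:**
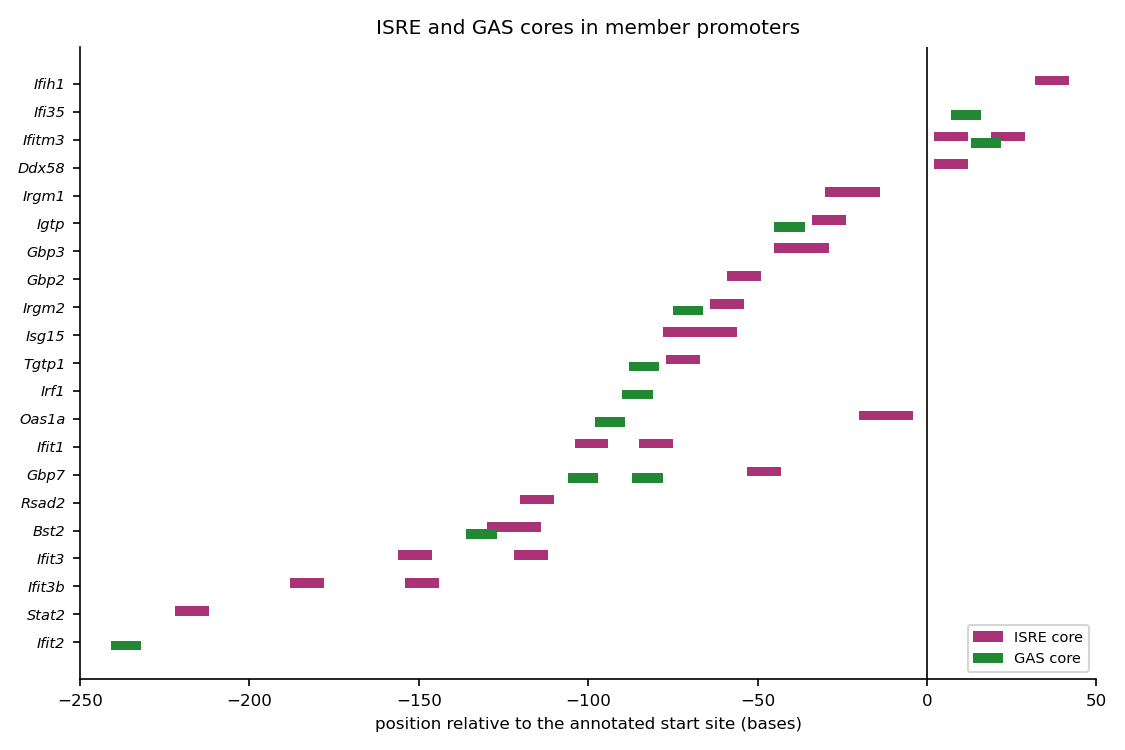
Position of ISRE cores (purple) and GAS cores (green) in the promoters of the 21 members that hold at least 1, in bases relative to the annotated start site at 0. Igtp, Irgm2 and Tgtp1 show a GAS core directly before an ISRE core.

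Across the 4 groups the members were lowest in wild-type sham ventricles. The mean over 36 members, each centred on its own mean over all libraries on a log2(CPM + 0.5) scale, was -0.31 ± 0.08 in wild-type sham (SD, n = 6) and 0.04 ± 0.15 in gene-trap sham libraries (n = 6). Among castrated mice it was 0.18 ± 0.17 in wild type (n = 7) and 0.05 ± 0.14 with the trap (n = 7). In gene-trap sham against wild-type sham ventricles 11 members rose and 1 fell of 34 tested (edgeR quasi-likelihood F test, Benjamini-Hochberg adjusted p under 0.05 over all genes), that is 32.4% higher, where 11.9% of all 11569 genes tested were called higher and 14.3% lower. In wild-type castrated against wild-type sham ventricles 17 rose and 1 fell of 36 tested, that is 47.2% higher, where 19.1% of all 12291 genes were called higher and 21.3% lower. Both comparisons use the same 6 wild-type sham libraries, so their values are given side by side and are not independent. In castrated mice the trap went with no member higher and 1 lower of 35 tested, where 0.0941% of all genes were called higher and 0.111% lower. Castration of gene-trap mice went with no call among 36 members, where 0.155% of all genes were called higher and 0.252% lower.

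The medians of the members followed the same order. The median log2 fold change was 0.36 for the trap in sham mice (0.02 over all genes) and 0.47 for castration in wild type (-0.02 over all genes). It was -0.09 for the trap in castrated mice and 0.10 for castration in gene-trap mice, beside 0.00 and 0.01 over all genes. Of the members tested, 30 of 34 had a positive value for the trap in sham mice and 30 of 36 for castration in wild type, where 52.0% and 48.5% of all genes did. In ventricle tissue a lower level may mean fewer cells of a type or less RNA per cell, and these cannot be told apart.

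**Figure D2:**
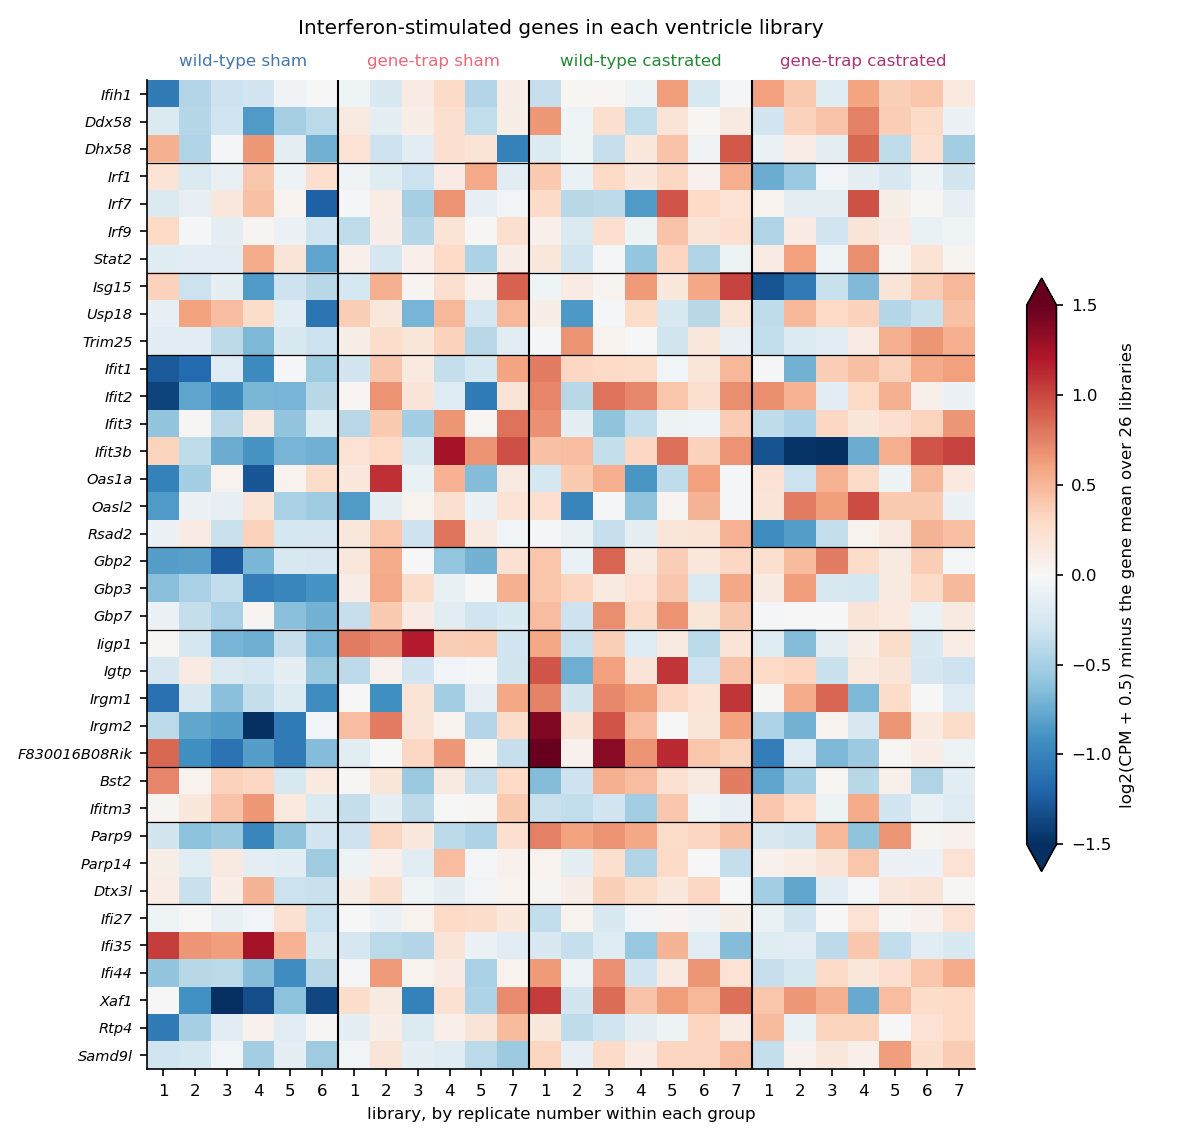
Level of each of the 36 tested members (rows, grouped by role between thin lines) in each library (columns), as log2(CPM + 0.5) minus the mean of the gene over 26 libraries; blue is lower and red higher, and the colours end at 1.5 either way. Most rows are blue across the 6 wild-type sham libraries, with Ifi35 red there.

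The guanylate-binding proteins, large GTPases that assemble on the membranes of microbes and their vacuoles, all rose after castration in wild type. Gbp3 (chr3:142560026-142573209, plus strand, GRCm38) was at a lowest, median and highest level of 3.46, 4.33 and 5.82 CPM among wild-type sham libraries, against 7.04, 8.76 and 11.6 CPM among gene-trap sham ones. The same values were 6.51, 9.71 and 11.6 CPM in wild-type castrated and 6.26, 8.44 and 12.1 CPM in gene-trap castrated ones. All 20 libraries outside wild-type sham thus lay above the highest wild-type sham library, which held for 0.138% of all genes. Gbp3 was also the 1 member with every gene-trap sham library above every wild-type sham one, a pattern of 3.7% of all genes. The trap in sham mice gave a 2.07-fold higher level (log2 1.05, SE 0.20, edgeR adjusted p = 0.00147), and castration in wild type a 2.10-fold higher one (1.07, SE 0.19, edgeR adjusted p = 0.000253). In castrated mice the genotypes differed by a log2 value of -0.09 (SE 0.17, edgeR adjusted p = 0.801).

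Gbp2 was at 3.55, 5.22 and 7.61 CPM (lowest, median, highest, here and below) in wild-type sham libraries, 5.35, 9.75 and 13.6 CPM in gene-trap sham, 8.45, 11.4 and 17.1 CPM in wild-type castrated and 8.99, 11.1 and 15.8 CPM in gene-trap castrated ones. All wild-type castrated libraries lay above all wild-type sham ones, while the sham groups overlapped. Castration in wild type raised it by 1.03 on the log2 scale (SE 0.21, edgeR adjusted p = 0.000618) and the trap in sham mice by 0.72 (SE 0.24, edgeR adjusted p = 0.0356), a call lost without any 1 of 8 of the 12 libraries. Gbp7 was at 21.1, 25.8 and 35.8 CPM in wild-type sham and 27.9, 45.9 and 56.7 CPM in wild-type castrated libraries, where replicate 2 was the lowest. It rose by 0.73 (SE 0.15, edgeR adjusted p = 0.000692), and its 27.2 to 45.7 CPM in gene-trap sham libraries passed no test (log2 0.31, SE 0.17, edgeR adjusted p = 0.166).

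All 5 tested immunity-related GTPases, which act on vacuole membranes and regulate each other, rose after castration in wild type. Irgm2 (chr11:58199618-58222782, plus strand), one of the regulators, was at 10.8, 20.6 and 35.3 CPM among wild-type sham libraries, against 26.6, 42.7 and 62.7 CPM among gene-trap sham ones. It was at 36.5, 50.1 and 95.8 CPM in wild-type castrated and 22, 37.7 and 57.7 CPM in gene-trap castrated ones, so that every wild-type castrated library exceeded every wild-type sham one. On the log2 scale the trap raised it by 1.02 in sham mice (SE 0.24, edgeR adjusted p = 0.00711), and castration by 1.35 in wild type (SE 0.26, edgeR adjusted p = 0.000551). Gene-trap castrated replicates 1 to 4, at 22 to 37.7 CPM, all lay below replicates 5 to 7, at 40.3 to 57.7 CPM.

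Iigp1 (chr18:60376029-60392627, plus strand), an effector of the family, was highest in gene-trap sham libraries, at 60.1, 108 and 166 CPM, against 43.9, 51.3 and 73.9 CPM in wild-type sham. In wild-type castrated libraries it was at 55.2, 80.1 and 109 CPM and in gene-trap castrated ones at 46.3, 66.7 and 87.8 CPM. The trap in sham mice raised it 2.05-fold (log2 1.04, SE 0.20, edgeR adjusted p = 0.00234) and castration in wild type 1.43-fold (log2 0.52, SE 0.19, edgeR adjusted p = 0.0296). The second call was lost without any 1 of 5 libraries, namely wild-type sham 3, 4 or 6 or wild-type castrated 1 or 3. Castration in gene-trap mice gave -0.67 (SE 0.19), the smallest edgeR adjusted p of any member there (0.0676), and DESeq2 called it lower.

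F830016B08Rik, a gene on chromosome 18 (chr18:60293380-60303016, plus strand) near Iigp1 and grouped with this family here, was the 1 member that passed between castrated genotypes. It was at 7.67, 11.9 and 23.7 CPM in wild-type castrated and 3.30, 6.29 and 7.82 CPM in gene-trap castrated ones, and only wild-type replicate 2, the lowest, reached into the gene-trap range. The log2 fold change was -1.26 (SE 0.25, edgeR adjusted p = 0.0412). This call was lost without any 1 of 9 of the 14 libraries, and without gene-trap castrated replicates 1 to 4, where fewer libraries were fitted and the value was -0.92 (SE 0.31, edgeR adjusted p = 0.323); 28.1% of its transcript end recurs in other genes, which makes its counts uncertain. In wild-type sham libraries it was at 3.12 to 4.46 CPM in replicates 2 to 6 and 13.7 CPM in replicate 1. Castration in wild type raised it by 1.4 (SE 0.31, edgeR adjusted p = 0.00127), and by up to 1.94 when a single library was left out.

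Igtp and Irgm1, both regulators, also rose after castration in wild type. Igtp was at 8.93, 11.2 and 14.5 CPM in wild-type sham and 7.83, 18.0 and 28.6 CPM in wild-type castrated libraries (log2 0.67, SE 0.21, edgeR adjusted p = 0.0123). Its castrated libraries spread widely: replicates 1 and 5 were at 26.1 and 28.6 CPM, replicates 2 and 6 at 7.83 and 10.6 CPM. Irgm1 was low throughout, at 0.560, 1.15 and 1.5 CPM in wild-type sham and 1.41, 3.07 and 4.35 CPM in wild-type castrated libraries (log2 1.39, SE 0.34, edgeR adjusted p = 0.00220). Igtp and Irgm2 overlap on the same strand, so tags of one may have been counted for the other. Tgtp1 was not tested: it had 0 counts in all 7 wild-type castrated libraries and at most 0.419 CPM anywhere, and 83.7% of its transcript end recurs in other genes, most of it in its near copy Tgtp2.

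Averaged over the GTPase members, the wild-type castrated libraries had an SD of 0.35, against 0.12 to 0.16 in the other groups. Their centred mean was 0.82 in replicate 1, 0.71 in replicate 3, 0.51 in replicate 5 and 0.49 in replicate 7. Replicates 4, 6 and 2 were at 0.30, 0.03 and -0.14. The 6 wild-type sham libraries lay at -0.70 to -0.31, below all 20 others, the lowest of which was at -0.15.

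**Figure D3:**
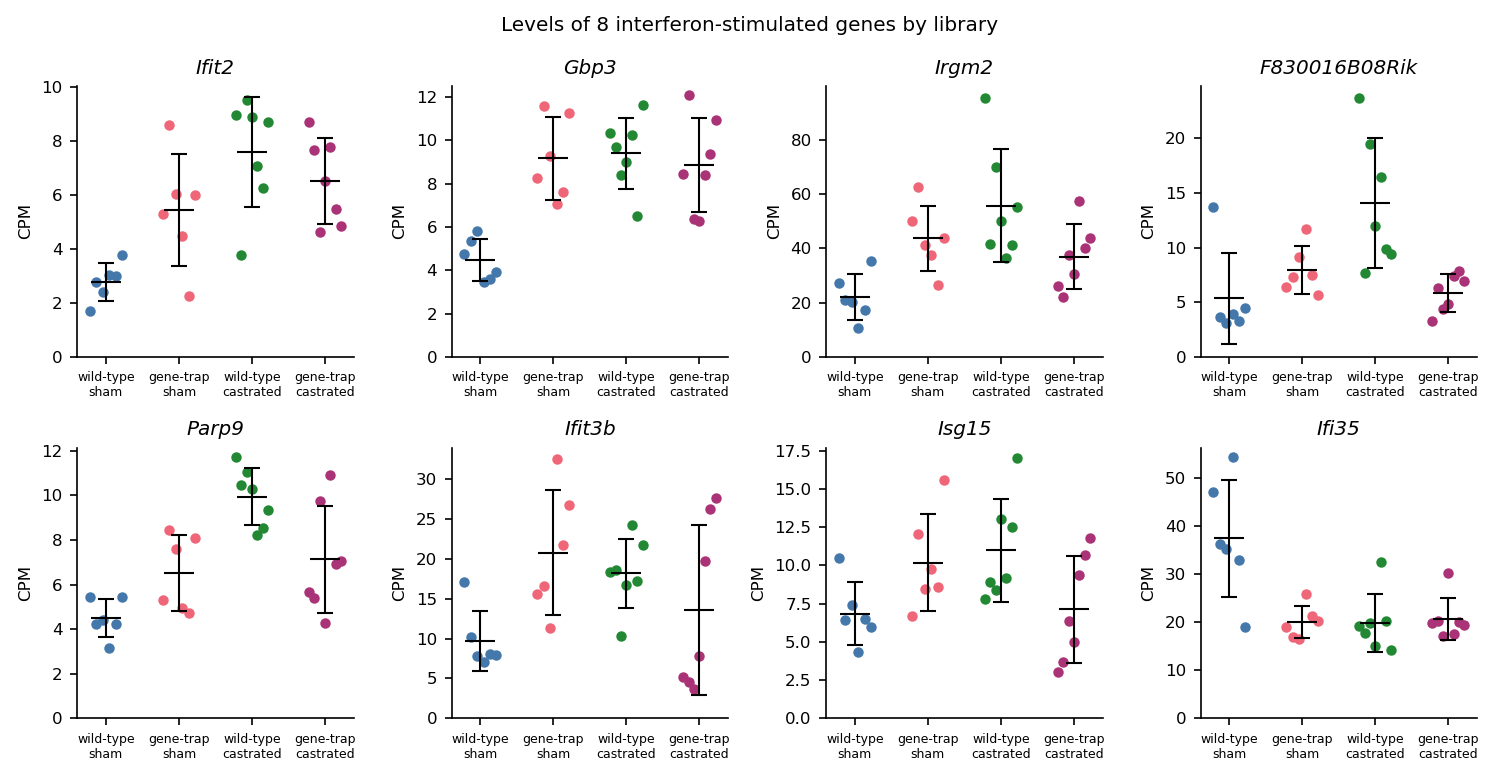
Level in CPM of 8 members in each library (points), with the mean and SD of each group (black). Ifit2, Gbp3, Irgm2 and Parp9 are lowest in wild-type sham, Ifit3b and Isg15 split within gene-trap castrated, and Ifi35 is high in 5 of 6 wild-type sham libraries.

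Among genes that act on RNA, the Ifit genes, whose proteins bind foreign RNA and block its translation, were called most often. Ifit2 (chr19:34550694-34576419, plus strand) was at 1.68, 2.89 and 3.77 CPM in wild-type sham libraries, 2.24, 5.66 and 8.59 CPM in gene-trap sham, 3.76, 8.71 and 9.51 CPM in wild-type castrated and 4.62, 6.5 and 8.70 CPM in gene-trap castrated ones. Of the 20 libraries outside wild-type sham, 18 lay above the highest wild-type sham one. Castration in wild type raised it 2.73-fold (log2 1.45, SE 0.25, edgeR adjusted p = 0.000238) and the trap in sham mice 1.98-fold (log2 0.99, SE 0.28, edgeR adjusted p = 0.0154). Ifit1 was at 2.24, 3.47 and 5.98 CPM in wild-type sham libraries, 4.64, 5.86 and 9.44 CPM in gene-trap sham and 5.88, 7.58 and 10.7 CPM in wild-type castrated libraries. Its log2 values were 0.79 for the trap in sham mice (SE 0.27, edgeR adjusted p = 0.0374, lost without any 1 of 6 of 12 libraries) and 1.04 for castration in wild type (SE 0.24, edgeR adjusted p = 0.00159).

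Ifit3b (chr19:34607970-34613401, plus strand) was at 7.07, 8.03 and 17.1 CPM among wild-type sham libraries, against 11.3, 19.2 and 32.5 CPM among gene-trap sham ones, a 2.16-fold difference (log2 1.11, SE 0.25, edgeR adjusted p = 0.00527). Wild-type castrated libraries, at 10.3, 18.3 and 24.2 CPM, gave a log2 value of 0.91 (SE 0.40) that missed the threshold (edgeR adjusted p = 0.0705). Gene-trap castrated replicates 1 to 4 were at 3.62 to 7.8 CPM and replicates 5 to 7 at 19.8 to 27.7 CPM, without overlap. Its near copy Ifit3, with the identical promoter stretch, passed in no comparison: its medians were 8.79 CPM in wild-type sham, 12.9 in gene-trap sham, 10.4 in wild-type castrated and 13.1 in gene-trap castrated libraries. Of the Ifit3 transcript end, 30.5% recurs in other genes, most of it in Ifit3b.

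Rsad2, which encodes viperin, an enzyme that makes a chain-ending nucleotide, passed in no comparison. It was at 74.5, 83.6 and 120.1 CPM in wild-type sham libraries, 75.9, 105 and 164 CPM in gene-trap sham, 73.8, 92.3 and 135 CPM in wild-type castrated and 49.3, 97.5 and 135 CPM in gene-trap castrated ones. Within the last group replicates 1 to 4 were at 49.3 to 97.5 CPM and replicates 5 to 7 at 103 to 135 CPM. Oasl2, of the oligoadenylate synthetase family, had a median of 4.35 CPM in wild-type sham libraries, against 7.32 CPM in gene-trap castrated ones, with log2 values of 0.26 to 0.61 over the 4 comparisons and no call. Oas1a, whose product activates RNase L, stayed at or below 2.86 CPM, and 61.9% of its transcript end recurs in other genes, most of it in Oas1g. It was too low to test in the sham libraries and passed in no other comparison.

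Of the nucleic acid sensors, Ddx58, which encodes the RNA sensor RIG-I, passed in both comparisons against wild-type sham. It was at 4.76, 6.62 and 7.70 CPM in wild-type sham libraries, 6.85, 9.60 and 10.7 CPM in gene-trap sham, 6.85, 9.95 and 14.4 CPM in wild-type castrated and 7.25, 11.6 and 15.6 CPM in gene-trap castrated ones. Outside wild-type sham, 17 of 20 libraries exceeded its highest value there. The trap in sham mice gave 0.50 (SE 0.17, edgeR adjusted p = 0.0371, lost without any 1 of 8 of 12 libraries) and castration in wild type 0.62 (SE 0.18, edgeR adjusted p = 0.00667). Ifih1, a sensor of long double-stranded RNA, had log2 values of 0.34 to 0.40 in all 4 comparisons and passed in none, with medians of 5.29, 6.70, 6.53 and 8.80 CPM in wild-type sham, gene-trap sham, wild-type castrated and gene-trap castrated libraries. Dhx58, a related helicase, was at 0.245 to 2.38 CPM and passed in neither castration comparison; it was too low for the others. Zbp1, a sensor of Z-form nucleic acid, was at 0 to 2.08 CPM and did not pass the filter on low counts, so it was not tested.

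The ISG15 system attaches a ubiquitin-like protein to others. Isg15 was at 4.33, 6.45 and 10.5 CPM in wild-type sham libraries, 6.70, 9.18 and 15.6 CPM in gene-trap sham, 7.78, 9.18 and 17 CPM in wild-type castrated and 3.03, 6.36 and 11.8 CPM in gene-trap castrated ones. It rose after castration in wild type (log2 0.68, SE 0.27, edgeR adjusted p = 0.0412), a call lost without any 1 of 8 of 26 libraries, all of them wild type; the trap in sham mice gave 0.59 (SE 0.23, edgeR adjusted p = 0.0596). In gene-trap castrated replicates 1 to 4 it was at 3.03 to 6.36 CPM, below the 9.40 to 11.8 CPM of replicates 5 to 7. Trim25, a ligase that acts on RIG-I, was at 28.3, 37.5 and 40.4 CPM in wild-type sham libraries, 33.9, 50.002 and 57.8 CPM in gene-trap sham and 37.4, 45.7 and 73.0 CPM in wild-type castrated libraries. It rose by 0.41 with the trap in sham mice (SE 0.14, edgeR adjusted p = 0.0373, lost without any 1 of 7 of 12 libraries) and by 0.42 after castration in wild type (SE 0.17, edgeR adjusted p = 0.0442, lost without any 1 of 6 of 26 libraries). Its highest wild-type castrated library, replicate 2 at 73.0 CPM, lay with gene-trap castrated replicates 5 to 7, at 66.2 to 71.8 CPM, while gene-trap castrated replicates 1 to 4 were at 35.1 to 49.5 CPM. Usp18, which removes ISG15 and restrains receptor signalling, passed in no comparison, with medians of 3.17 to 4.12 CPM.

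None of the 4 transcription factors passed by edgeR in any of the 4 comparisons; at an unadjusted p under 0.05 there was 1 higher and 1 lower between castrated genotypes and 1 lower after castration in gene-trap mice. Irf9 and Stat2, partners in the complex that binds the ISRE, had medians of 26.1 to 31.3 CPM and 5.23 to 6.46 CPM over the 4 groups. Irf7, which drives interferon genes themselves, had medians of 9.14 to 11 CPM and single high libraries, at 18.5 CPM in wild-type castrated replicate 5 and 18.6 CPM in gene-trap castrated replicate 4. Irf1, an early factor of the response to interferon gamma, was at 44.8, 59.0 and 70.0 CPM in wild-type castrated and 28.3, 40.8 and 46.7 CPM in gene-trap castrated ones. The genotypes overlapped there (log2 -0.53, SE 0.13, edgeR adjusted p = 0.0619), while DESeq2 and limma voom called Irf1 lower.

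The membrane restriction factors Bst2, which tethers budding viruses, and Ifitm3, which blocks fusion in endosomes, did not pass either, with 1 of them lower at an unadjusted p under 0.05 between castrated genotypes and 1 after castration in wild type. Bst2 had medians of 6.39, 5.68, 6.35 and 3.90 CPM in wild-type sham, gene-trap sham, wild-type castrated and gene-trap castrated libraries. Ifitm3 had medians of 129.9, 112, 96.3 and 111 CPM in the same order and was the 1 member whose gene-trap castrated replicates 1 to 4, at 111 to 173 CPM, all lay above replicates 5 to 7, at 95.8 to 108 CPM; 26.2% of its transcript end recurs in other genes.

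Parp9, an ADP-ribosyltransferase relative that works with the ligase Dtx3l, rose after castration in wild type with no overlap, as did Gbp2, Gbp3, Irgm2 and Ifi44; these are 5 of 36 members, where 3.09% of all genes had that pattern. Parp9 was at 3.17, 4.32 and 5.46 CPM in wild-type sham and 8.24, 10.3 and 11.7 CPM in wild-type castrated libraries (2.21-fold; log2 1.14, SE 0.20, edgeR adjusted p = 0.000260). Gene-trap sham libraries, at 4.73, 6.45 and 8.45 CPM, lay between (log2 0.56, SE 0.21, edgeR adjusted p = 0.0575), and gene-trap castrated ones were at 4.25, 6.91 and 10.9 CPM. Dtx3l itself, whose gene overlaps Parp9 on the other strand, passed in no comparison, with medians of 23.2 to 27.8 CPM, nor did Parp14, with medians of 23.5 to 28.2 CPM. The sources used here do not give the strand setting of the counting. The 2 genes overlap only at their 5′ ends, at chr16:35938470-35939151, while tags are counted near the 3′ end. Only tags of Parp9 and Dtx3l from that stretch may have been counted for each other.

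Among the other induced genes, Xaf1, a proapoptotic factor, had the largest log2 value of the 36 tested members for castration in wild type. It was at 0.709, 1.10 and 2.94 CPM in wild-type sham libraries, 1.20, 3.41 and 5.15 CPM in gene-trap sham, 2.35, 4.82 and 6.62 CPM in wild-type castrated and 1.54, 4.09 and 4.91 CPM in gene-trap castrated ones. Castration in wild type gave 1.76 (SE 0.33, edgeR adjusted p = 0.000383) and the trap in sham mice 1.15 (SE 0.38, edgeR adjusted p = 0.0327, lost without any 1 of 7 of 12 libraries). Ifi44 was at 2.99, 4.19 and 4.54 CPM in wild-type sham libraries, 4.23, 6.38 and 9.88 CPM in gene-trap sham and 4.96, 7.26 and 10.2 CPM in wild-type castrated libraries, with no overlap between the first and the last. It rose by 0.73 with the trap in sham mice (SE 0.21, edgeR adjusted p = 0.0179, lost without gene-trap sham replicate 2) and by 0.96 after castration in wild type (SE 0.21, edgeR adjusted p = 0.000997). Samd9l, a restriction factor that inhibits translation, was at 5.44, 6.55 and 7.8 CPM in wild-type sham and 7.36, 10.2 and 11.3 CPM in wild-type castrated libraries (log2 0.58, SE 0.16, edgeR adjusted p = 0.00549). Rtp4 and Ifi27 passed in no comparison, with medians of 10.8 to 15.1 CPM and 43.8 to 48.8 CPM.

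Ifi35, whose protein pairs with the factor Nmi, was the 1 member that fell in the comparisons against wild-type sham. It was at 19.1, 35.8 and 54.4 CPM in wild-type sham libraries, 16.6, 19.7 and 25.9 CPM in gene-trap sham, 14.3, 19.3 and 32.6 CPM in wild-type castrated and 17.2, 19.9 and 30.3 CPM in gene-trap castrated ones. Wild-type sham replicates 1 to 5 were at 32.9 to 54.4 CPM, and replicate 6, the library that did not stand apart on the first component, was at 19.1 CPM, within the range of the other groups. The trap in sham mice gave -0.89 (SE 0.20, edgeR adjusted p = 0.00380) and castration in wild type -0.91 (SE 0.19, edgeR adjusted p = 0.000737), and both calls held without any single library.

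**Figure D4:**
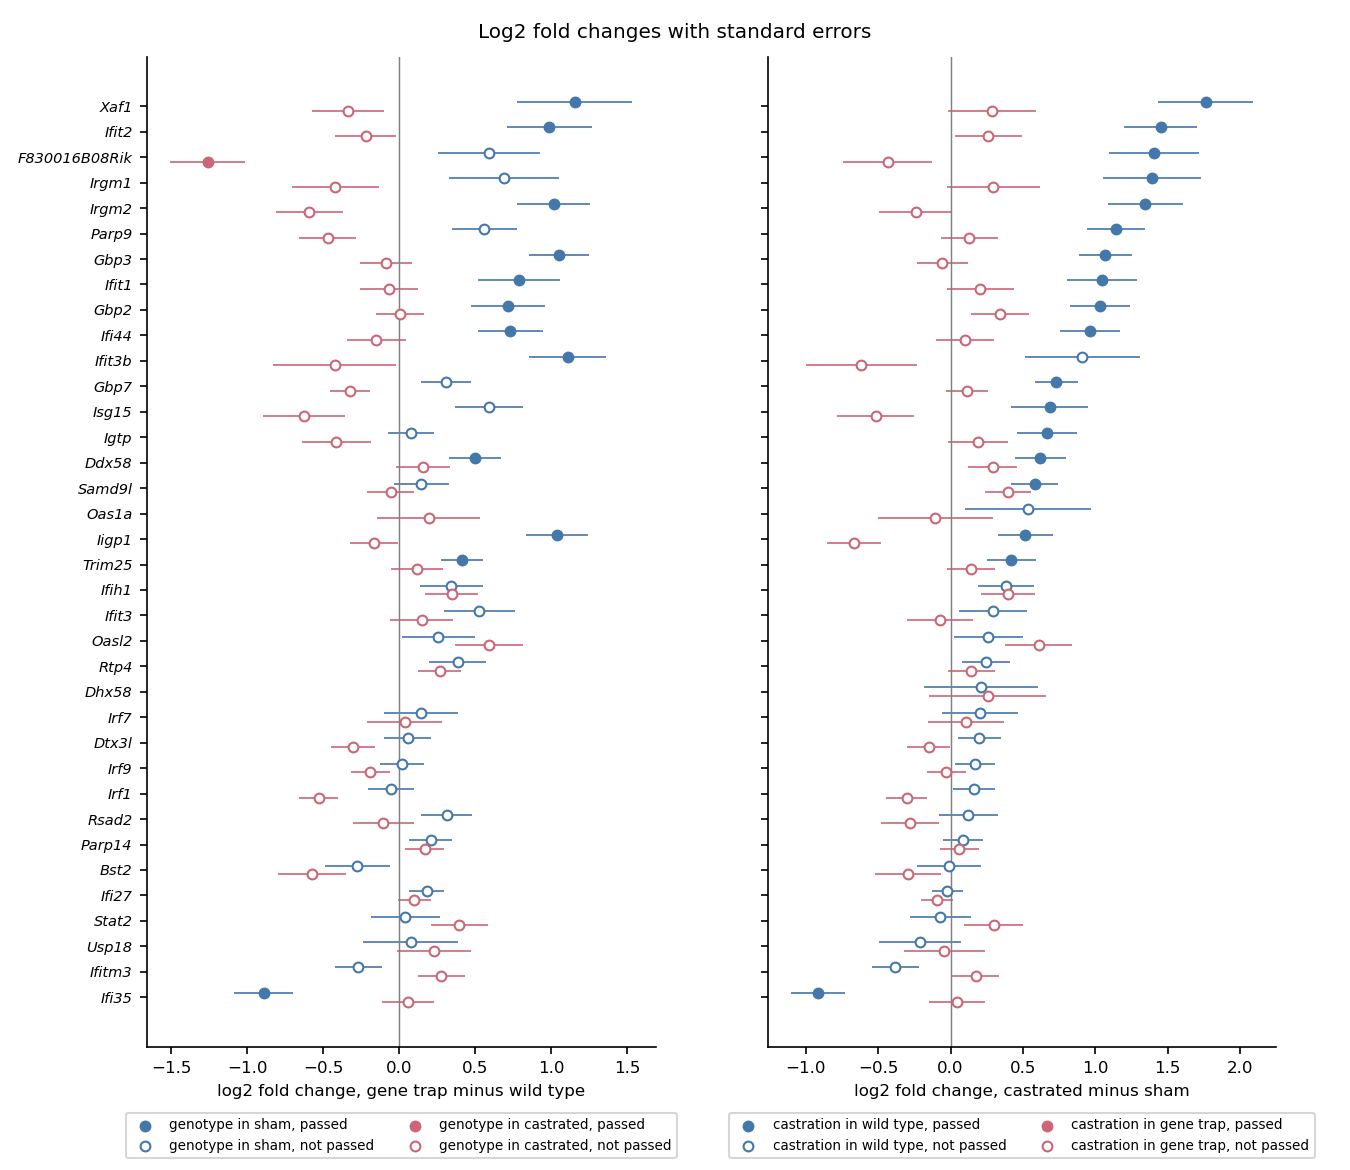
Log2 fold change with its standard error for each tested member, for the trap (left: sham blue, castrated red) and for castration (right: wild type blue, gene trap red); filled points passed at an adjusted p under 0.05. Blue filled points lie to the right of 0 except Ifi35, and 1 red point, F830016B08Rik on the left, is filled.

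Wild-type sham replicate 6 had the lowest member mean of all 26 libraries, at -0.45; its place on the first component was 3.43, among the other groups. For 6 of the 11 members that rose with the trap in sham mice it lay below every gene-trap sham library, and for 15 of the 17 that rose after castration in wild type below every wild-type castrated library. Among all genes called higher in these comparisons the shares were 56.0% and 32.0%. The fits that made these calls included replicate 6, so its place among called genes is partly set by the choice. Without it the members called with the trap in sham mice numbered 13. That count was 7 without wild-type sham replicate 4 and 6 without gene-trap sham replicate 2, against 12 with all libraries. Gbp3, Iigp1, Irgm2, Ifit2, Ifit3b and Ifi35 were called without any 1 of the 12. For castration in wild type the count ran from 15 to 19 over the 26 fits that left out 1 library.

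Castration had a different effect in the genotypes for 11 members, by the interaction in the fit of all 4 groups (gene trap minus wild type). It was lower for 10 of 36 members, or 27.8%, and higher for 1, where 8.36% of all genes were called lower and 11.8% higher. The median over the members was -0.39, beside -0.02 over all genes. The GTPase genes gave -1.84 (SE 0.44, edgeR adjusted p = 0.00748) for F830016B08Rik, -1.59 (SE 0.36, edgeR adjusted p = 0.00663) for Irgm2, -1.19 (SE 0.26, edgeR adjusted p = 0.00621) for Iigp1, -1.13 (SE 0.25, edgeR adjusted p = 0.00621) for Gbp3 and -0.62 (SE 0.21, edgeR adjusted p = 0.0360) for Gbp7. The others were Xaf1 at -1.48, Isg15 at -1.20, Ifit2 at -1.19, Parp9 at -1.02 and Ifi44 at -0.86, with edgeR adjusted p between 0.0139 and 0.0336, and Ifi35 at 0.96 (edgeR adjusted p = 0.0148). Isg15, Xaf1, Ifi44 and Gbp7 lost the call without at least 1 of the 26 single libraries.

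The interaction calls were lost without gene-trap castrated replicates 1 to 4. Without those 4 libraries no member passed (smallest edgeR adjusted p = 0.234, with 11 members at an unadjusted p under 0.05), nor did any gene of the genome. All 11 values kept their sign, and the median of their ratio to the value with all libraries was 0.87. With all libraries, 8 of 36 members were lower in each of replicates 1 to 4 than in each of replicates 5 to 7 of that group, namely Isg15, Trim25, Ifit3b, Rsad2, Irgm2, F830016B08Rik, Dtx3l and Samd9l, and Ifitm3 was higher. Of all 12291 genes, 14.4% were split in the first way and 16.1% in the second.

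In gene-trap mice castration itself gave no call among the 36 members by edgeR or limma voom, and 1 lower by DESeq2 (Iigp1). At an unadjusted p under 0.05 there were 3 higher and 2 lower. The values ran from -0.67 (Iigp1) to 0.61 (Oasl2). Without gene-trap castrated replicates 1 to 4 no member passed either (smallest edgeR adjusted p = 0.583). For the trap in castrated mice the unadjusted counts were 2 higher and 8 lower, and the values ran from -1.26 (F830016B08Rik) to 0.59 (Oasl2).

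The base composition of the transcript ends moved with both comparisons against wild-type sham, for all genes as for the members. Of genes whose last 400 nucleotides have under 45% GC, 19.2% were called higher and 4.11% lower with the trap in sham mice, while at 50% GC or more 3.36% were higher and 29.0% lower. For castration in wild type these shares were 30.6% and 7.2%, and 5.85% and 40.1%. The members had a median GC of 44.9%, against 46.5% over all genes tested. With under 45% GC, 15 of 19 members rose after castration in wild type and 10 of 19 with the trap in sham mice; at 50% or more, 1 of 9 (Isg15) and 0 of 8 did. Ifi35, which fell in both, had 55.8% GC. The slope of log2 level on GC, per 10 percentage points, was 0.24 ± 0.13 (SD, n = 6) in wild-type sham libraries and -0.06 ± 0.12 (n = 6), -0.13 ± 0.10 (n = 7) and -0.02 ± 0.17 (n = 7) in gene-trap sham, wild-type castrated and gene-trap castrated libraries. Within the last group it was 0.01 to 0.26 in replicates 1 to 4 and -0.22 to -0.14 in replicates 5 to 7.

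With the GC trend of each library taken out, 14 of the 18 calls for castration in wild type were kept, and the called members had a median of 0.83 times their former log2 value. Gbp7, Iigp1, Igtp and Samd9l, with 36.5% to 43.6% GC, passed no more, and Irf1 (0.36) and Irf7 (0.62), with 51.1% and 57.0% GC, now did. For the trap in sham mice 5 of 12 calls were kept, those of Gbp3, Iigp1, Irgm2, Ifit3b and Ifi35, and the value of Ifi35 moved from -0.89 to -0.54. For the interaction 7 of 11 calls were kept. Those of Gbp7, Ifit2, Ifi44 and Ifi35 were lost, and Irf1 now passed. The medians over all tested members were 0.37 for the trap in sham mice and 0.40 for castration in wild type after this step. The part of GC in the single calls that were lost was not tested further.

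**Figure D5:**
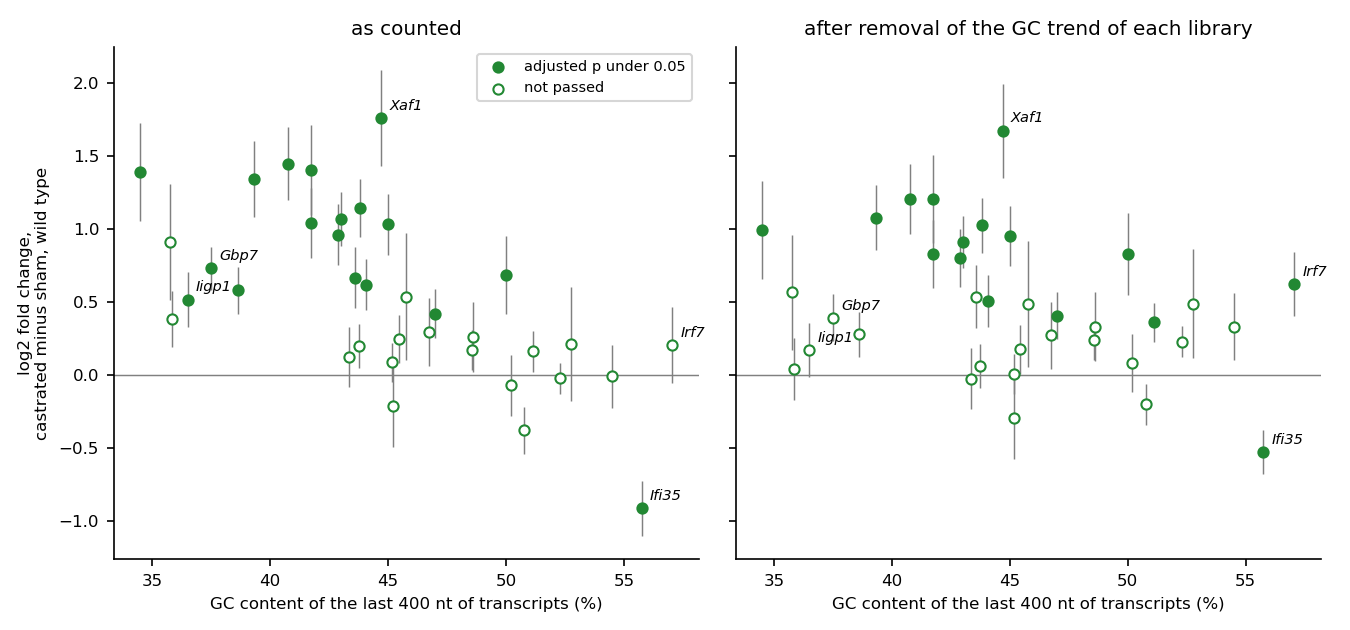
Log2 fold change after castration in wild type, with standard error, against the GC content of the last 400 nucleotides of each member's transcripts, as counted (left) and with the GC trend of each library removed (right); filled points passed. Members of low GC lie higher on the left, Ifi35 is lower in both panels, and Irf7 passes on the right.

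Genes of the same pathway outside the 38 were read from lists of 112 genes. The interferon genes themselves were all but absent: 18 of 21 had 0 counts in all 26 libraries, and the most counted had 1 count in all. A count of 0 allows up to 0.319 to 0.472 CPM in a library by counting error. Of 6 receptor genes, Ifngr1, which binds interferon gamma, fell with the trap in sham mice (log2 -0.41, SE 0.13, edgeR adjusted p = 0.0273) and Il10rb, a shared chain, rose after castration in wild type (0.57, SE 0.12, edgeR adjusted p = 0.000936). Each was 1 call among 6, close to the shares of all genes, 14.3% lower and 19.1% higher in these comparisons.

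Of 51 further interferon-stimulated genes, 3 rose and 1 fell with the trap in sham mice (34 tested), and 14 rose and 2 fell after castration in wild type (38 tested). Of all genes, 11.9% and 19.1% were called higher, and 14.3% and 21.3% lower. The share of the 34 called higher with the trap in sham mice was thus below that of all genes. After castration in wild type the share of the 38 was above it. Gbp4 rose by 0.76 (SE 0.20) and 0.89 (SE 0.20) and Herc6, an ISG15 ligase, by 1.06 (SE 0.33) and 1.18 (SE 0.30) in these comparisons, and Trim30a and Ifi47 by 0.77 and 0.82 after castration in wild type. Parp10 fell by 0.89 and 0.60. Against the same shares, over all 112 genes 10 rose and 2 fell of 69 tested with the trap in sham mice, 23 rose and 4 fell of 74 after castration in wild type, and none passed by edgeR in the comparisons among the other 3 groups. The 10 of 69 lay close to the share of all genes called higher. At an unadjusted p under 0.05 there were 6 higher and 7 lower of 72 for the trap in castrated mice and 5 higher and 4 lower of 74 for castration in gene-trap mice; DESeq2 called 3 in each and limma voom 4 and 1. For the interaction, 15 were lower and 2 higher of 74 tested, where 8.36% of all genes were called lower and 11.8% higher.

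Some markers of ventricle cell types moved with both comparisons against wild-type sham as well, and their part in the results was not tested. Summed levels of T cell, natural killer cell, B cell and plasmacytoid dendritic cell markers were at most 3.52 CPM in any library. For plasmacytoid dendritic cells the sum held only Siglech and Ccr9. Bst2, itself a member at 2.90 to 9.54 CPM, and the broadly expressed Tcf4 were left out of it. The 8 macrophage markers summed to 262 to 461 CPM in wild-type sham, 176 to 299 CPM in gene-trap sham, 183 to 463 CPM in wild-type castrated and 172 to 242 CPM in gene-trap castrated libraries, with 1 marker higher and 1 lower in each comparison against wild-type sham. Of 6 fibroblast markers, 2 rose with the trap in sham mice and 3 after castration in wild type; of 6 endothelial markers, 4 and 3 fell, and Cdh5 rose after castration in wild type. Of 6 cardiomyocyte markers 1 rose and 1 fell with the trap in sham mice, and 5 fell after castration in wild type. Of 5 erythroid markers 2 and 5 fell. Of 5 smooth muscle and pericyte markers, 1 (Cspg4) rose in each. Of all genes, 11.9% and 19.1% were called higher and 14.3% and 21.3% lower in these comparisons. Smooth muscle and pericyte markers summed to 658 to 979 CPM in gene-trap castrated replicates 1 to 4 and 1262 to 1456 CPM in replicates 5 to 7. Neutrophil markers summed to 34 CPM in gene-trap sham replicate 7 and to at most 9.91 CPM in the other 25 libraries, and Ly6g had 0 counts in 3 of the 4 groups.

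The authors' deposited table gives DESeq2 values for wild type over gene trap. With the sign turned to gene trap over wild type, it lists an adjusted p under 0.05 for 3 members in sham mice, namely Gbp3 (log2 0.77, adjusted p = 0.000961), Ifit3b (0.84, 0.00153) and Ifi44 (0.54, 0.0348). The other members called here in sham mice did not pass in those DESeq2 values. Among them were Irgm2 (0.28, 0.506), Iigp1 (0.55, 0.0893), Ifi35 (-0.43, 0.187) and Ifit2 (0.60, 0.0601). DESeq2 as run here on the sham libraries kept all 12 calls and added Isg15 and Parp9. The cause of the difference from the deposited values was not tested. In castrated mice the authors' deposited table lists 2, F830016B08Rik (-0.92, 0.000695) and Irf1 (-0.49, 0.00731).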

How the data were processed

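Per the labels' protocols, QuantSeq forward kits turned RNA of mouse left ventricles into 3′ end libraries. Builds GRCm38 and mm10 and the tools featureCounts 1.6.0, STAR, DESeq2 1.22.2, CASAVA 1.4 and FastQC are listed in the submitters' processing notes, with no role given. The deposited tables hold raw counts per gene and library, per the file headers. The authors also deposited a mean signal after their scaling, log2 fold changes with a score (the ratio to the standard error) and p-values before and after adjustment. Groups came from the sample titles.

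Counts were fitted with edgeR 4.0.16 in R 4.3.3 (TMM scaling, filterByExpr, robust quasi-likelihood F test, Benjamini-Hochberg over all genes tested, threshold 0.05). Genotype was tested within each surgery group; castration and the interaction were tested in 1 fit of the 4 groups. A standard error is the fitted log2 value divided by the root of its F statistic. The fits were tested on simulated data. DESeq2 1.42.0, limma 3.58.1 (voom with sample weights), other scaling and filters, removal of the GC trend, a replicate block and leaving out libraries were the alternatives. Shares of transcript ends found in other genes are shares of words of 31 nucleotides. Every gene of the list is accounted for; full values are given for up to 10 called genes per comparison with the smallest p and up to 4 per role. The 38 genes and all lists were chosen with earlier results of these data known. Limits from counts of 0 (3 counts) cover counting error only. The result for 1 gene of the pathway lists is not reported here.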

Additional observations from a re-analysis of the deposited data

Results flagged for a closer look

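In 152 sets of 1 gene and 1 group of libraries, 12 held a library whose gap to the nearest other was large for the range of the group; chance alone flags about 1 in 20 such groups. Wild-type castrated replicate 5 was high for Ifih1 (10.5 CPM, others 5.11 to 6.76), Ifitm3 (156 CPM, others 81.2 to 112) and Ifi35 (32.6 CPM, others 14.3 to 20.4). Gene-trap castrated replicate 4 was high for Irf7 (18.6 CPM, others 8.43 to 9.94) and Ifi35 (30.3 CPM, others 17.2 to 20.3) and low for Xaf1 (1.54 CPM, others 3.65 to 4.91). Wild-type sham replicate 1 was high for Ifit3b (17.1 CPM, others 7.07 to 10.2) and F830016B08Rik (13.7 CPM, others 3.12 to 4.46). Wild-type castrated replicate 2 was high for Trim25 (73.0 CPM, others 37.4 to 51.2) and at 0 for Zbp1 (others 0.353 to 0.552 CPM). Gene-trap sham replicate 7 was high for Zbp1 (2.08 CPM, others 0.120 to 0.640) and replicate 4 for Parp14 (36.2 CPM, others 23.3 to 27.6).

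The castration effect differed between genotypes, by the edgeR interaction, for 11 genes. Gene trap minus wild type on the log2 scale was -1.84 for F830016B08Rik (1.4 in wild type, -0.43 in gene trap), -1.59 for Irgm2 (1.35 and -0.24), -1.48 for Xaf1 (1.76 and 0.29), -1.20 for Isg15 (0.68 and -0.52), -1.19 for Ifit2 (1.45 and 0.26) and -1.19 for Iigp1 (0.52 and -0.67). It was -1.13 for Gbp3 (1.07 and -0.06), -1.02 for Parp9 (1.14 and 0.13), -0.86 for Ifi44 (0.96 and 0.10), -0.62 for Gbp7 (0.73 and 0.11) and 0.96 for Ifi35 (-0.91 and 0.04). None passed without gene-trap castrated replicates 1 to 4. With the GC trend of each library removed, Gbp7, Ifit2, Ifi44 and Ifi35 did not pass.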

How the results depend on the processing

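No result changed direction under any alternative, and the medians over the members moved by less than the spread between libraries. Counts called in the main fits were 12 (members) and 12 (other pathway genes) for the trap in sham mice, 1 and 0 for the trap in castrated mice, 18 and 27 for castration in wild type, 0 and 0 for castration in gene-trap mice and 11 and 17 for the interaction. Removing the GC trend gave 7 members for the trap in sham mice, 2 for the trap in castrated mice, and 1 and 9 pathway genes for castration in gene-trap mice and the interaction. DESeq2 gave 2 members and 3 pathway genes for the trap in castrated mice, and 1 and 3 for castration in gene-trap mice. Limma voom gave 19 pathway genes for the trap in sham mice, 2 members and 4 pathway genes for the trap in castrated mice, 1 pathway gene for castration in gene-trap mice and 17 members for the interaction. A fit of all 4 groups gave 2 members and 1 pathway gene for the trap in castrated mice, and no filter on low counts gave 11 pathway genes for the interaction. Without gene-trap castrated replicates 1 to 4 the trap in castrated mice gave 0 members, and the interaction 0 members and 0 pathway genes; fewer libraries were then fitted. The cause of the other changes was not tested.

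The deviations of same-numbered libraries from their group means had correlations of both signs. Broad differences between libraries enter these correlations, so whether the numbers pair the libraries cannot be told from them. With the replicate block, which keeps only numbers present in every group of a fit, members called were 9 for the trap in sham mice, 0 for the trap in castrated mice, 16 for castration in wild type, 2 for castration in gene-trap mice and 9 for the interaction, and pathway genes for castration in gene-trap mice were 2.

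Leaving out 1 library gave 6 to 13 members and 8 to 18 pathway genes for the trap in sham mice, 0 to 2 and 0 to 3 for the trap in castrated mice, 15 to 19 and 19 to 30 for castration in wild type, 0 to 1 and 0 to 3 for castration in gene-trap mice, and 9 to 13 and 10 to 21 for the interaction. Depth limits Zbp1, Tgtp1, Dhx58 and Oas1a, at a few counts per library.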

Other observations

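The 2 near copies Ifit3 and Ifit3b differed within 1 group. In gene-trap castrated replicates 1 to 4 Ifit3b was at 3.62 to 7.8 CPM and Ifit3 at 7.8 to 13.7 CPM; in replicates 5 to 7 Ifit3b was at 19.8 to 27.7 CPM and Ifit3 at 13.1 to 17.7 CPM. The difference between these libraries was not tested, since the labels put them in 1 group.

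Tlr4, the receptor for bacterial lipopolysaccharide and one of the sensing genes outside the 38, was at 6.93, 11.2 and 13.3 CPM (lowest, median, highest) in wild-type sham and 21.4, 26.9 and 28.8 CPM in gene-trap sham libraries, without overlap, as were 3.7% of all genes (log2 1.27, SE 0.16, edgeR adjusted p = 0.000157). The 7 wild-type castrated libraries, at 14.6 to 29.3 CPM, also lay above wild-type sham. Gene-trap castrated replicates 1 to 4 were at 9.57 to 15.5 CPM and replicates 5 to 7 at 24.5 to 31.3 CPM. Cxcl10, a chemokine induced by interferon gamma, was at 0.279, 0.326 and 0.499 CPM in wild-type sham and 0.747, 1.13 and 2.21 CPM in gene-trap sham libraries, again without overlap. It was too low to pass the filter of the sham fit; after castration in wild type it rose by 1.21 (SE 0.46, edgeR adjusted p = 0.0343).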
